A study of Mus musculus with 42 samples.

Results

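Type 2 cytokine and receptor genes were followed through the mouse colon data as 8 genes taken by name: Il13, Il4ra, Il13ra1, Il13ra2, Il9r, Il31ra, Tslp and Crlf2. They are 8 of the 19227 gene names that appear in the 12 deposited expression tables, and each table compares a knockout or cytokine group with its control. Sorted cells came from Gli1-CreERT2 mice 30 days after tamoxifen, which was injected on 5 days in control and knockout mice alike (the labels say under the skin, the methods into the peritoneum). GWTM2, GS4M2 and GA3M2 are Muc2-mCherry+ goblet cells from mice with wild-type alleles (GWT), with loss of Smad4 in Gli1+ cells (GS4) or with loss of Alk3 in Gli1+ cells (GA3), and GWTT, GS4T and GA3T are the Gli1-CreERT2-tdTomato+ stromal cells of the same 3 genotypes. Each sorted group had 2 libraries from the proximal and 2 from the distal colon. Because CreERT2 is driven by Gli1, the deletion concerns Gli1+ stromal cells, and the goblet cells of GS4M2 and GA3M2 mice are not themselves the target. The third set of libraries came from wild-type colonic organoids, which the study's methods place in the distal colon. They were left untreated or given 10 nM IL-1 (IL-1α with IL-1β) or 10 nM IL-17A for 12 or 72 h, with 3 libraries per group, in a medium with EGF, Noggin, R-spondin1, Wnt3a and CHIR. The labels do not say whether libraries of a group came from separate mice or cultures or from pools, so the p-values below measure the spread between libraries, which may be technical.

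Type 2 immunity is the arm of immunity that answers worms and allergens. IL-13 and IL-4 act through IL-4Rα (Il4ra), which pairs with IL-13Rα1 (Il13ra1) in non-hematopoietic cells and signals through JAK kinases and STAT6; in the gut this receptor drives goblet cell hyperplasia. IL-13Rα2 (Il13ra2) binds IL-13 tightly and is best known as a decoy. TSLP is an alarmin made by epithelial and stromal cells, and its receptor pairs CRLF2 (Crlf2) with IL-7Rα. IL-9R (Il9r) carries the IL-9 signal with the common γ chain, and IL-31RA (Il31ra) pairs with the oncostatin M receptor.

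The promoters of Il13ra1 and Il13ra2, 2 receptor genes that rose in GS4T cells of both segments, and of Il9r, which fell in distal GS4T cells, are shown because they differ in composition. Each is the window of 250 bases before the start of the gene in RefSeq (GRCm38.p6), written 5′ to 3′ on the strand of the gene, with matches to any of 5 searched motifs in capitals. They lie at chrX:36111858-36112107 (plus strand), chrX:147429193-147429442 (minus strand) and chr11:32200280-32200529 (minus strand).
Il13ra1: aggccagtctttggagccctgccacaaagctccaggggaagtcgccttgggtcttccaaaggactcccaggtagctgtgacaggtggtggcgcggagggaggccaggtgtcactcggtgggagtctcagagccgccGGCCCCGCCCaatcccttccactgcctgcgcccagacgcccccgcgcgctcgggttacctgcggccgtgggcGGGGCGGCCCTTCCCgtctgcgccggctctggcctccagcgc
Il13ra2: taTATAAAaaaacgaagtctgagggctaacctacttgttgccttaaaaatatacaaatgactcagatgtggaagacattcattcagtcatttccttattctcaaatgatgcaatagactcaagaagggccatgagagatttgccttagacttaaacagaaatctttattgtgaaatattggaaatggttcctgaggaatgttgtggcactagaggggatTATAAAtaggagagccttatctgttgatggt
Il9r: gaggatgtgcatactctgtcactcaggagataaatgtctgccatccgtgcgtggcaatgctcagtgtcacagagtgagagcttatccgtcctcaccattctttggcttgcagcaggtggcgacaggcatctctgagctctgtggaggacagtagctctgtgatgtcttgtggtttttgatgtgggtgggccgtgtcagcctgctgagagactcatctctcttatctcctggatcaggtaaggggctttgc
The Il13ra1 window was 70.8% G and C with 21 CpG dinucleotides, that of Il13ra2 36.0% with 1 CpG and that of Il9r 52.8% with 5, against medians of 52.0% and 6 over the windows of all genes in the table. The windows of Crlf2 (71.6% and 24 CpG) and Il4ra (59.6% and 17) were also rich in CpG, whereas those of Il13 (43.2% and 3) and Il31ra (42.0% and 4) were not. The RefSeq and GENCODE starts lie 151 bases apart for Il4ra and 13698 bases apart for Il31ra, so their windows are not shown.

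Both strands were searched for a loose NF-kB motif (GGG and CC with any 5 bases between them, in 45.4% of 27025 promoter windows), a STAT6 motif (TTC and GAA with any 4 bases between them, 5.86%), the motif of other STAT proteins (TTCNNNGAA, 7.18%), a BMP SMAD motif (GGCGCC, 9.54%) and the TATA box (TATAAA, in 3504 windows). The NF-kB motif matched at 3 places in the Il13ra1 window (from −114, −42 and −37 relative to the start, the last pair overlapping) and at 5 in that of Crlf2. TATAAA matched from −248 and −31 in the Il13ra2 window and from −31 and −29, overlapping, in the Il13 window. TTCNNNGAA matched once, in Il31ra. None of the 7 windows searched held the STAT6 motif or GGCGCC, and those of Il4ra and Il9r held no match at all, which says only that these letters are not in these windows.

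The libraries held between 14222902 and 23686940 reads in named genes. In stromal cells Smad4 had 1604 to 1781 normalized counts in GWTT and 680 to 1171 in GS4T libraries, and Bmpr1a, the gene of Alk3, fell between 2960 and 3485 in GWTT and 1842 and 2233 in GA3T libraries. Gli1 itself was at 23.9 in GS4T proximal replicate 2 and 34.7 in GA3T proximal replicate 2 against at least 642 in the other stromal libraries, and it had no row in goblet or organoid tables. Goblet libraries of GA3M2 mice held 12294 to 18753 normalized counts of Muc2, fewer than the 41156 to 224217 of GWTM2 libraries. Those of GS4M2 mice held more than their controls under the deposited column names. They had 356310 to 401714 against 168657 to 212088 in the proximal colon and 194631 to 238217 against 43021 to 113478 in the distal colon. The same GWT libraries of a segment served as controls for both knockouts. Of 42 listed libraries 40 differed: control organoids at 12 h replicate 2 and at 72 h replicate 1 held identical reads, as did replicate 4 at both times, so the 12 h and 72 h comparisons share 2 controls. Judged by Xist, sexes were not balanced: GWTM2 replicate 1 was female and all other goblet libraries male, and in stromal cells GWTT proximal replicate 1 and GA3T replicate 1 of both segments were male.

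Il4ra, Il13ra1 and Crlf2 had a row in all 12 tables. Il13ra2, Il9r, Il31ra and Tslp had rows in the 4 stromal tables and in none of the goblet or organoid tables, and Il13 had rows in the 2 proximal stromal tables. A table lists a gene only above some minimum (the lowest mean of a listed row lay between 1.72 and 7.39 normalized counts), so a missing row is a low value and not a measured 0. Values below are normalized counts, the reads of a library divided by the size factor of its table, and a change is called in limma where the p adjusted over all tested genes (Benjamini-Hochberg) is under 0.05 and the log2 fold change is 1 or more in size. Genes with a mean under 10 normalized counts were not tested, which left out Il13. With 2 libraries against 2 an exact permutation test of 1 gene cannot go below 0.333, and with 3 against 3 it cannot go below 0.1, so the tests below borrow the spread across genes.

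**Figure D1:**
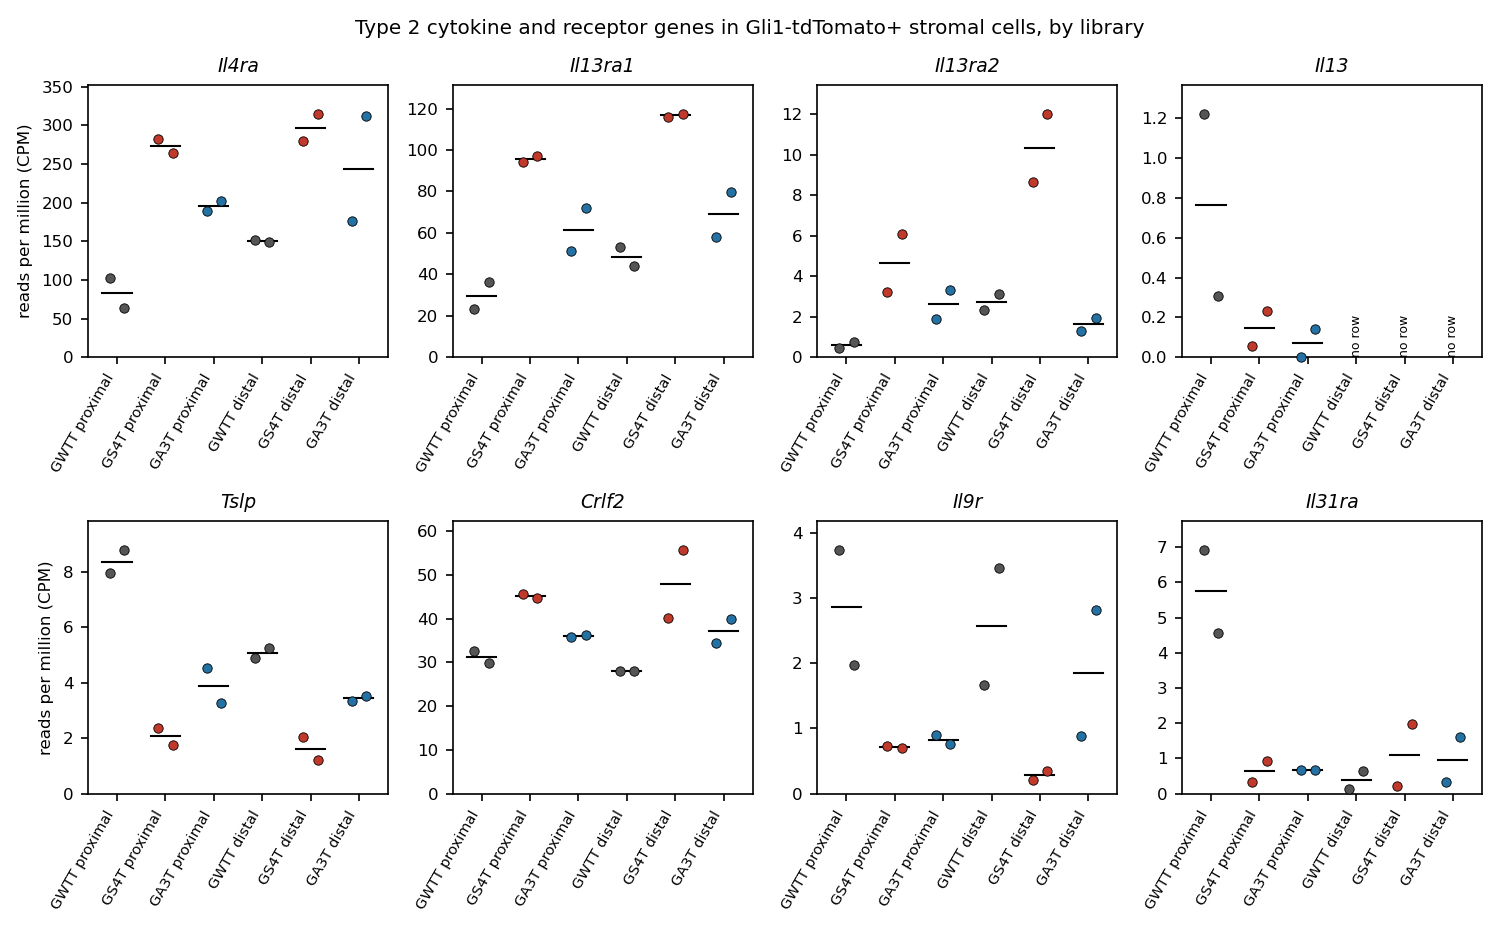
CPM (reads scaled to a common library total, vertical axis, from 0) of the 8 genes in each Gli1-CreERT2-tdTomato+ stromal library (points) with the group mean (line), for GWTT (gray), GS4T (red) and GA3T (blue) of the proximal and distal colon. The GS4T libraries lie above GWTT for Il4ra, Il13ra1 and Il13ra2 and below it for Tslp and Il9r in both segments, and "no row" marks groups whose table does not list Il13.

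Loss of Smad4 in stromal cells went with higher mRNA of the IL-4 and IL-13 receptor chains in both segments, with lower Tslp in both, with lower Il31ra in the proximal and lower Il9r in the distal colon. In the proximal comparison limma called 5 of the 7 tested members, 3 higher and 2 lower, where 9.61% of all genes were called (5.25% higher and 4.36% lower). In the distal comparison 5 of 7 were called, again 3 higher and 2 lower, against 14.0% of all genes (7.88% higher and 6.08% lower). The median log2 fold change of the 7 tested members was 0.53 in the proximal and 1.00 in the distal comparison, beside 0.02 and 0.00 over all genes. Of the 7, Il13ra2 passed the filter in the proximal table through the GS4T libraries and in the distal table Il9r through the GWTT and Il31ra through the GS4T libraries, so these counts are a description. The calls rest on few libraries: without GS4T proximal replicate 1 or replicate 2 limma called 0 members in the proximal comparison, and without GWTT distal replicate 2 or GS4T distal replicate 2 it called 1 in the distal one, with the direction of each called member kept.

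Il4ra, the chain that IL-4 and IL-13 receptors share (chr7:125552120-125579474, plus strand, GRCm38 as for the other genes), had 1734 and 1060 normalized counts in the GWTT proximal libraries and 4608 and 4526 in GS4T proximal. The GS4T libraries lay above both controls, 3.37-fold higher on average (log2 fold change 1.75 ± 0.24 SE, limma adjusted p = 0.0148). Distal GWTT libraries had 2486 and 2413 and GS4T libraries 4579 and 5263. Here too the groups did not overlap, and the log2 fold change of 1.00 ± 0.11 (limma adjusted p = 0.00428) sits at the threshold: it was 0.994 in edgeR, just short of a call. An antisense gene, Gm44876, overlaps Il4ra, but had rows in 2 tables only, at 12.3 normalized counts at most.

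Il13ra1, the signalling partner of Il4ra for IL-13 (chrX:36112110-36171259, plus strand), had 393 and 597 normalized counts in GWTT proximal and 1530 and 1656 in GS4T proximal libraries. It rose 3.28-fold (log2 1.71 ± 0.22, limma adjusted p = 0.0124). Its distal values were 869 and 713 in GWTT and 1904 and 1962 in GS4T libraries (log2 1.29 ± 0.13, limma adjusted p = 0.00319). The 2 GS4T libraries of each segment lay close together and well above both controls, and Il13ra1 in distal stroma was the one member called under each of 12 alternative settings.

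Il13ra2, the decoy receptor (chrX:147383476-147429192, minus strand), was far less abundant. Its 7.24 and 12.3 normalized counts in GWTT proximal libraries, 7 and 12 reads, stood against 52.6 and 104 in GS4T proximal (log2 2.84 ± 0.57, limma adjusted p = 0.0343). The distal controls were higher to begin with, at 38.1 and 50.3, and GS4T libraries had 142 and 201 (log2 1.92 ± 0.34, limma adjusted p = 0.014). The groups did not overlap in either segment. In the proximal table Il13ra2 was tested at all only because of its level in the GS4T libraries, so its proximal fold is a description.

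Il13, the cytokine itself (chr11:53631324-53634702, minus strand), was close to 0. The GWTT proximal libraries held 20 and 5 reads (20.7 and 5.12 normalized counts in the table with GS4T) and the GS4T proximal libraries 1 and 4 reads (0.922 and 3.99). GA3T proximal replicate 1 held 0 of 17849600 reads, which allows up to 3 reads or 0.168 CPM, and replicate 2 held 3 reads. The lower control and the higher knockout library thus differed by 1 or 2 reads, and no fold is given. Counting limits of this kind, like the intervals of the fits, do not cover reads copied in amplification.

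Tslp, the alarmin, was lower with Smad4 loss. Its normalized counts were 134 and 146 in GWTT proximal and 38.7 and 29.9 in GS4T proximal libraries, and it fell by 2.01 ± 0.32 on the log2 scale (limma adjusted p = 0.0203). Distal GWTT libraries had 80.2 and 85.2 and GS4T libraries 33.7 and 20.0, and Tslp fell by 1.63 ± 0.42 (limma adjusted p = 0.0415). Crlf2, its receptor chain (chr5:109554709-109558993, minus strand), was somewhat higher: 552 and 495 in GWTT against 744 and 764 in GS4T proximal libraries, and 461 and 456 against 657 and 929 in distal ones. The adjusted p of Crlf2 was under the threshold in both (0.0467 and 0.0366 in limma), but its log2 fold changes of 0.53 ± 0.12 and 0.77 ± 0.19 missed the size asked for a call. The ligand was therefore lower where its receptor chain was slightly higher.

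Il9r (chr11:32187541-32200279, minus strand) had 63.1 and 32.8 normalized counts in GWTT proximal and 12.0 in each GS4T proximal library. The groups did not overlap, but the log2 fold change of -1.84 ± 0.54 missed the threshold (limma adjusted p = 0.0796), while DESeq2 on the recovered reads called it. Distally 27.4 and 56.1 in GWTT stood against 3.54 and 5.87 in GS4T libraries, which is 28 and 58 reads against 4 and 5. Il9r fell there by 2.85 ± 0.67 (limma adjusted p = 0.0317). It was not called there with any single library left out, with log2 fold changes from -3.35 to -2.34. In the distal table Il9r was tested only because of its level in the GWTT libraries, so its distal fold is a description.

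Il31ra (chr13:112519898-112594360, minus strand) differed by segment already in the controls. It had 117 and 75.8 normalized counts in GWTT proximal and 5.53 and 15.9 in GS4T proximal libraries, and fell by 3.18 ± 0.63 (limma adjusted p = 0.0329). Its distal controls were low, with 1.96 and 10.6, and GS4T libraries had 3.54 and 32.9, so that the groups overlapped (log2 1.08 ± 1.24, limma adjusted p = 0.565). The difference between the segments, -4.26 ± 1.55, did not pass the interaction test (limma adjusted p = 0.4).

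The interaction test, which asks whether the change itself differed between proximal and distal colon, called 0 of the 7 members in limma (2 at an unadjusted p under 0.05) and 0 in edgeR for GS4T, against 0.189% of all genes. The 2 were Il31ra and Il4ra, whose change was larger in the proximal colon by 0.75 ± 0.29 (limma adjusted p = 0.446). The 95% interval of that difference ran from 0.06 to 1.44.

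**Figure D2:**
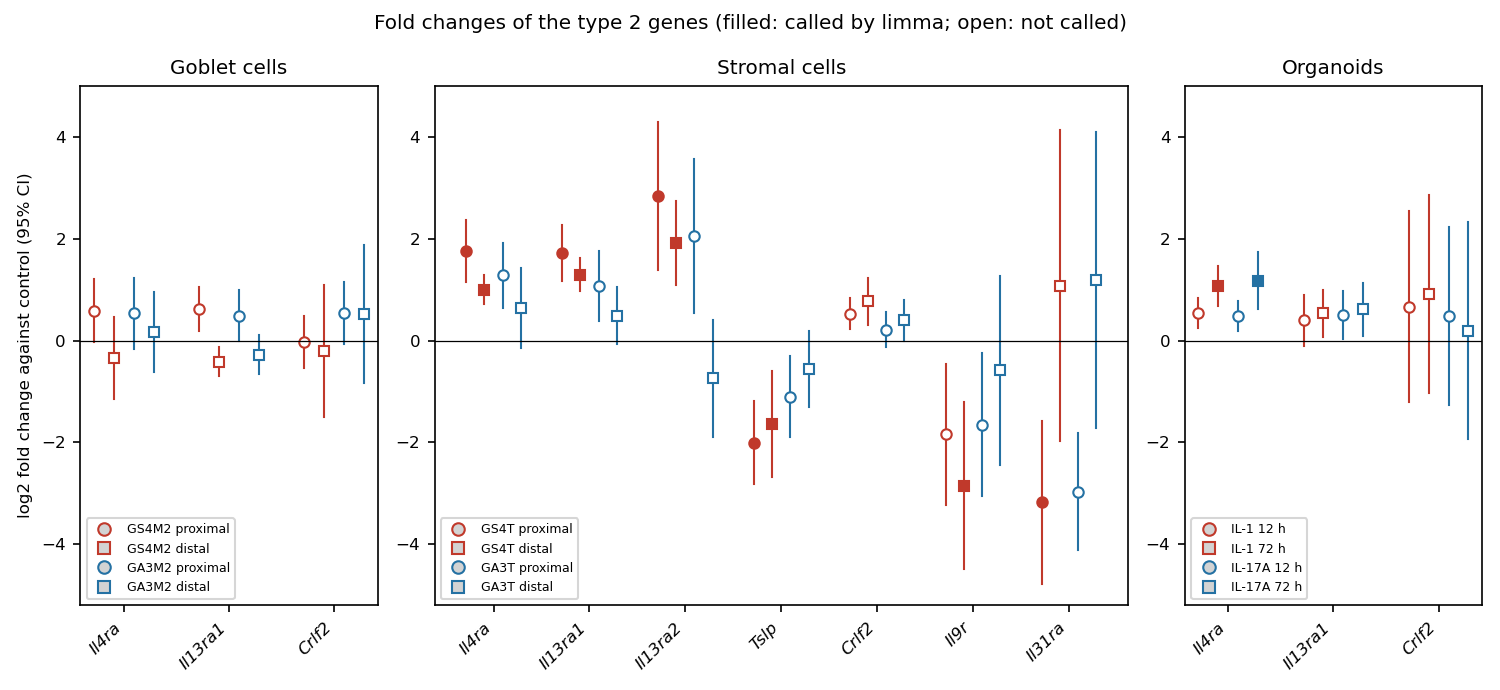
Log2 fold change (vertical axis) of each tested gene against its control, with the 95% confidence interval from limma, in goblet cells, stromal cells and organoids. Colors and shapes give the comparison, filled symbols were called and open ones were not: 10 filled symbols are GS4T values and 2 are Il4ra in organoids at 72 h.

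Loss of Alk3 in stromal cells gave the same signs in the proximal colon with smaller sizes and no call. Of the 7 tested members limma called 0 (6 at an unadjusted p under 0.05) and edgeR 0, against 0.358% of all genes in limma, whereas DESeq2 on the recovered reads called 3, Il31ra, Il4ra and Il13ra1, against 6.29% of all genes. Il4ra had 1824 and 1114 normalized counts in GWTT and 3377 and 3554 in GA3T proximal libraries (2.43-fold, SE of the log2 value 0.25, limma adjusted p = 0.0972). Il13ra1 had 413 and 628 against 914 and 1259 (log2 1.07 ± 0.27, limma adjusted p = 0.131). The groups did not overlap for either gene. Il13ra2 had 7.61 and 12.9 against 34.1 and 57.9 (log2 2.05 ± 0.58, limma adjusted p = 0.157). On the lower side, Il31ra had 123 and 79.7 against 12.0 and 11.6 (log2 -2.97 ± 0.45, limma adjusted p = 0.0735), Tslp 141 and 153 against 81.2 and 57.0, and Il9r 66.4 and 34.5 against 16.0 and 13.2. Crlf2 differed least, with 581 and 520 against 641 and 636. These values rest on the same GWTT libraries as the GS4T values, so the shared signs are not independent.

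In the distal colon Alk3 loss gave 0 called of 7 in limma and edgeR and in DESeq2 (0 at an unadjusted p under 0.05 in limma, 0 in edgeR and 1 in DESeq2), against 0% of all genes in limma. Il4ra had 2836 and 2746 normalized counts in GWTT distal and 3127 and 6014 in GA3T distal libraries, so the 2 GA3T libraries differed far more from each other than the controls did (log2 0.64 ± 0.31, limma adjusted p = 0.339). Without GA3T replicate 1 the log2 fold change of Il4ra was 1.11, with 1 GA3T library left. Il13ra2 was lower here in both GA3T libraries than in both controls, with 43.5 and 57.3 in GWTT and 23.3 and 37.2 in GA3T libraries. This change was not called (log2 -0.74 ± 0.45). The proximal change of Il13ra2 exceeded the distal one by 2.79 ± 0.71, with an unadjusted p of 0.00535 and a limma adjusted p of 0.481. The interaction fit of GA3T called 0 of 7 members in limma (2 at an unadjusted p under 0.05, the other being Il31ra), where 0% of all genes were called. Il13ra1 had 992 and 812 against 1034 and 1535, Tslp 91.5 and 96.9 against 59.4 and 68.0, Crlf2 525 and 519 against 614 and 769, Il9r 31.2 and 63.9 against 15.8 and 54.2, and Il31ra 2.23 and 12.1 against 6.01 and 30.8. For Il9r and Il31ra the groups overlapped.

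Markers of other cells moved with genotype in the stromal libraries. The labels give intestinal epithelium as the tissue of the tdTomato+ cells, but their libraries were led by stromal genes. The stromal list (7 of 7 genes with a row) summed to 30331 to 34759 CPM in GWTT proximal and 43011 to 51225 in GS4T proximal libraries, with 35068 to 44736 and 51823 to 53642 in the distal colon. The macrophage list (8 of 8) summed to 173 to 277 CPM in GWTT proximal, 832 to 1439 in GS4T proximal and 728 to 1336 in GA3T proximal libraries, and to 574 to 672, 1038 to 1855 and 656 to 958 in the distal ones. Neutrophil markers (5 of 5 in the GS4T tables) went from 2.08 to 6.49 CPM to 39.2 to 63.7 in proximal and from 3.34 to 6.02 to 146 to 165 in distal GS4T libraries, with Cxcr2 at 0 in both distal controls. The epithelial list (5 of 5) summed to 10.6 to 412 CPM in GWTT and 988 to 1177 in GS4T proximal libraries, and to 45.4 to 139 and 520 to 1021 in distal ones. In the opposite direction, B and plasma cell markers (5 of 5) summed to 1563 to 2784 CPM in GWTT and 426 to 827 in GS4T proximal libraries, and to 3487 to 4817 and 111 to 447 in distal ones. In GA3T libraries the epithelial list summed to 401 to 599 CPM in proximal, overlapping the controls, and to 322 to 785 in distal cells, and B and plasma cell markers to 891 to 935 (4 of 5 with a row) and 1797 to 1947. Endothelial markers (4 of 4) had 163 to 172 CPM in GWTT, 56.0 to 91.1 in GS4T and 59.99 to 115 in GA3T proximal libraries. They overlapped in the distal colon for GS4T (94.8 to 99.1 and 35.6 to 121) but not for GA3T (44.3 to 89.0). T cell and ILC markers (10 of 10) went from 409 to 431 to 269 to 279 CPM in the proximal colon and overlapped in the distal colon (354 to 377 and 254 to 389). Within that list Rora had 219 to 227 CPM in GWTT and 100 to 118 in GS4T proximal libraries, and led the sum. Ptprc had 60.8 to 64.3 and 47.3 to 52.6, while the T cell gene Cd3e had 2.87 to 2.90 and 1.36 to 2.97, which overlap. Several of these cells carry Il4ra, Il13ra1 or Il9r, and the part of the marker shift in the receptor values was not tested. In sorted bulk samples fewer cells of a type and less RNA per cell cannot be told apart.

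From a list of 41 other genes of the type 2 pathway, limma called 6 of 32 tested higher and 2 lower in proximal GS4T cells. Over all genes the shares were 5.25% and 4.36%. The 6 were Chil3, Retnlb, Arg1, Il1rl1, Csf2rb and Areg, and the 2 were the feedback inhibitors Socs1 and Socs3. In distal GS4T cells 6 of 32 were higher, the same 6 genes, and 4 were lower, Ang4, Clca1, Socs1 and Postn, against 7.88% and 6.08% of all genes. Chil3 passed the filter in the proximal comparison through the GS4T libraries, and Ang4 in the distal one through the GWTT libraries. These counts are therefore a description. Of the 8 proximal calls 0 were left without GS4T proximal replicate 1 and 2 without replicate 2, and of the 10 distal calls 5 were left without GWTT distal replicate 1 and 4 without replicate 2. Over the tested genes of the list the median change was -0.14 in log2 for proximal and -0.15 for distal cells, beside 0.02 and 0.00 over all genes. So a few genes of the list moved by a large amount while its median lay near that of all genes.

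Chil3, a chitinase-like protein of macrophages and neutrophils, had 3.10 and 2.05 normalized counts in GWTT proximal and 996 and 1720 in GS4T proximal libraries, and passed the filter there through the GS4T libraries alone, so no fold is given. The distal libraries had 22.5 and 4.84 against 510 and 1670 (log2 6.30 ± 0.81, limma adjusted p = 0.00585). Arg1, arginase of alternatively activated macrophages, had 47.6 and 87.1 against 1227 and 1165 in proximal (log2 4.19 ± 0.31) and 208 and 49.4 against 3455 and 1128 in distal libraries (log2 4.27 ± 0.77). Both genes rose beside the macrophage and neutrophil markers above, and the part of those cells in their rise was not tested.

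Il1rl1, the IL-33 receptor, had 156 and 70.7 normalized counts in GWTT proximal and 2508 and 1099 in GS4T proximal libraries (log2 3.97 ± 0.53, limma adjusted p = 0.0139). It had 137 and 91.0 against 7544 and 3194 in the distal libraries (log2 5.45 ± 0.42, limma adjusted p = 0.00156). Retnlb, a goblet cell product induced by type 2 cytokines, had 1.03 and 24.6 against 419 and 1643 in the proximal libraries (log2 6.85 ± 1.32, limma adjusted p = 0.0315), and epithelial markers were higher in the same libraries. Ang4, an antimicrobial protein of the epithelium, fell in the distal libraries, from 68.5 and 122 to 7.97 and 3.52 (log2 -3.86 ± 0.61, limma adjusted p = 0.01), having passed the filter through the GWTT libraries. With Alk3 loss limma and edgeR called 0 genes of the list in both segments (15 of 33 and 8 of 35 at an unadjusted p under 0.05 in limma), and DESeq2 called 7 and 2.

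**Figure D3:**
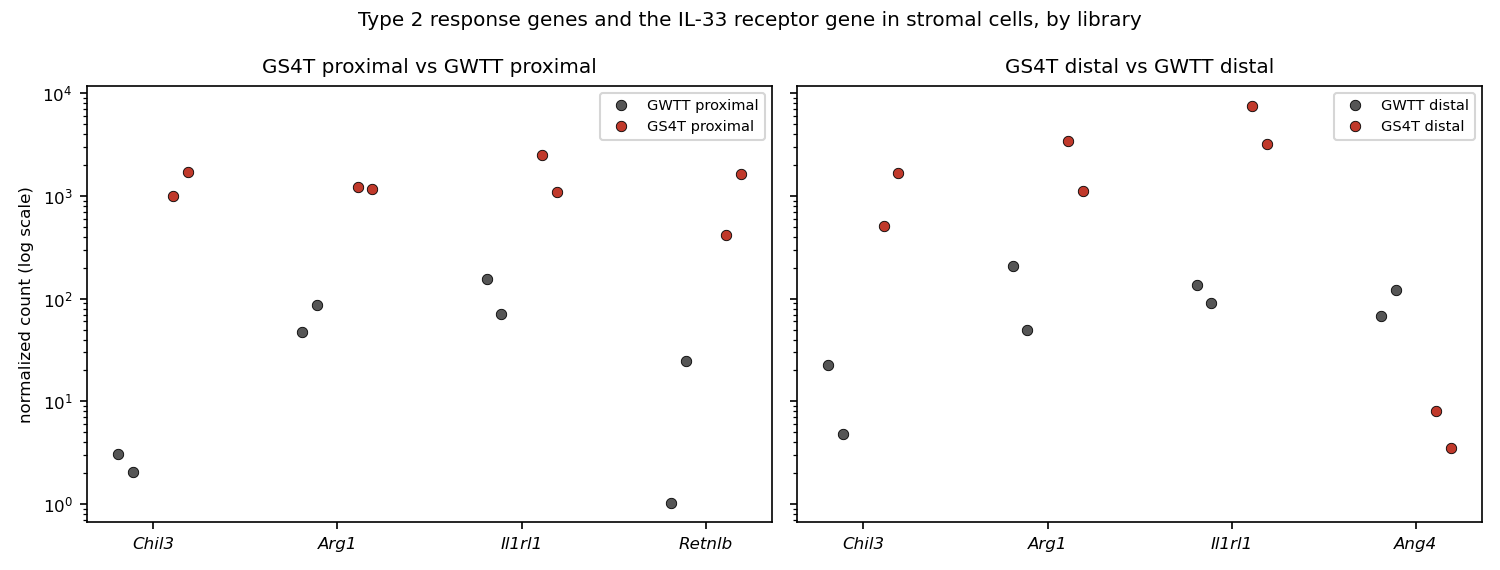
Normalized counts (log scale) of the type 2 response genes Chil3, Arg1, Retnlb and Ang4 and of the IL-33 receptor gene Il1rl1 in stromal libraries of the proximal (left) and distal (right) colon. Points are single libraries, gray for GWTT and red for GS4T. Chil3, Arg1 and Il1rl1 lie higher in the GS4T libraries of both panels, Retnlb in the left one, and Ang4 lies lower in the right one.

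In goblet cells the receptor genes moved little. Limma called 0 of 3 tested members in each of the 4 comparisons (1 at an unadjusted p under 0.05 in each GS4M2 comparison and 0 in each GA3M2 comparison), edgeR and DESeq2 called none either, and the share of all genes called was 0.325% and 0% for proximal and distal GS4M2 and 0.0899% and 0% for proximal and distal GA3M2. Il13ra1 was the member with the smallest p in both GS4M2 comparisons. It had 1965 and 1455 normalized counts in GWTM2 and 2311 and 2920 in GS4M2 proximal libraries (log2 0.62 ± 0.18, limma adjusted p = 0.189), but 4739 and 4655 in GWTM2 and 3323 and 3722 in GS4M2 distal libraries (log2 -0.42 ± 0.11, limma adjusted p = 0.403). The groups did not overlap in either segment and lay in opposite orders. The proximal direction rests on the deposited column names: a supplementary table of the study heads the proximal GS4M2 and GWTM2 columns the other way round, and with the names exchanged the proximal GS4M2 fold changes would turn in sign. Under the deposited names, used here, the proximal GWTM2 columns hold the same reads as the controls of the GA3M2 table. The difference between the segments was 1.04 ± 0.24, with an unadjusted p of 0.00314 and a limma adjusted p of 0.564, and in this interaction limma called 0 of 3 members (1 at an unadjusted p under 0.05), as did edgeR, and 0% of all genes.

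GA3M2 cells had the same order for Il13ra1, with 2092 and 1538 against 2550 and 2495 in proximal (log2 0.49 ± 0.20) and 4534 and 4493 against 4128 and 3363 in distal libraries (log2 -0.28 ± 0.16). Its segment difference of 0.77 ± 0.26 had a limma adjusted p of 1.00, with 0% of all genes called. Both knockouts share the GWTM2 libraries, in which Il13ra1 was high in the distal colon. Il4ra had 1512 and 915 normalized counts in GWTM2 and 1541 and 2030 in GS4M2 proximal libraries (log2 0.59 ± 0.25, limma adjusted p = 0.316), and 1912 and 1037 against 984 and 1257 in distal ones. The female GWTM2 replicate 1 lay above the male replicate 2 for Il4ra and Crlf2 in both segments, and in the distal table the control and knockout values of Il4ra overlapped. With GA3M2, Il4ra had 1609 and 968 against 2088 and 1564 in proximal and 1829 and 1001 against 1734 and 1337 in distal libraries.

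Crlf2 in goblet cells had 174 and 138 normalized counts in GWTM2 and 144 and 162 in GS4M2 proximal libraries, which overlap. The distal libraries had 276 and 98.5 against 137 and 149. In GA3M2 libraries it had 223 and 258 beside controls of 186 and 146 in the proximal colon, and 299 and 174 beside 264 and 95.1 in the distal colon. The log2 fold changes ran from -0.21 to 0.54, and the distal GS4M2 value of -0.21 had an SE of 0.51. Goblet libraries carried few reads of other cells: the stromal list summed to at most 30.1 CPM, and the macrophage markers with a row (2 to 6 of 8) to 4.19 to 7.48 CPM in GWTM2 and GS4M2 but 26.9 to 39.2 in GA3M2 libraries.

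**Figure D4:**
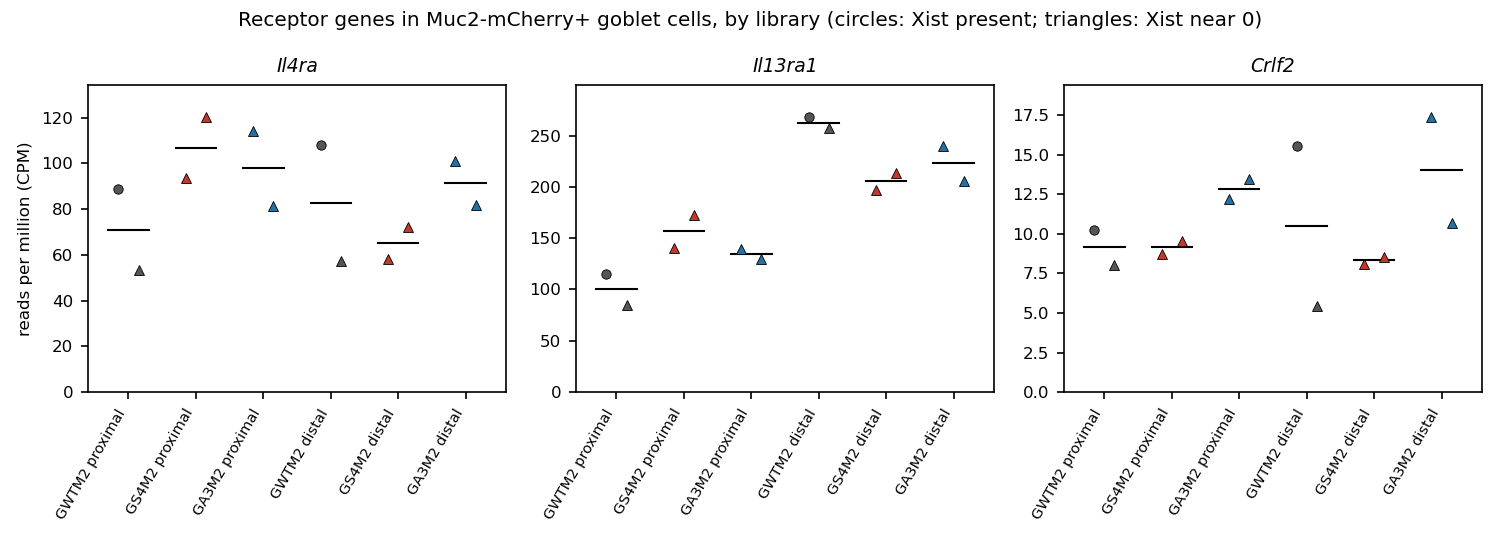
CPM (vertical axis, from 0) of Il4ra, Il13ra1 and Crlf2 in each Muc2-mCherry+ goblet library with the group mean (line), for GWTM2 (gray), GS4M2 (red) and GA3M2 (blue). Circles are libraries with Xist and triangles those without. Il13ra1 lies higher in the distal than in the proximal libraries of each genotype.

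In organoids Il4ra was the member called with both cytokines at 72 h, where Il13ra1 was also higher without overlap but not called. Limma called 1 of 3 tested members with IL-1 at 72 h, where 23.0% of all genes were called (10.9% higher and 12.2% lower), and 1 of 3 with IL-17A at 72 h, where 7.94% were called (5.02% higher and 2.92% lower). The called member was Il4ra in both. At 12 h 0 of 3 were called with either cytokine in limma, edgeR and DESeq2 (1 with IL-1 and 2 with IL-17A at an unadjusted p under 0.05 in limma), against 0.0542% of all genes with IL-1 and 0.0385% with IL-17A.

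Il4ra had 382, 377 and 318 normalized counts in control organoids at 72 h and 852, 678 and 733 with IL-1. Each treated library was above each control (log2 1.07 ± 0.17, limma adjusted p = 0.00429). With IL-17A at 72 h it had 712, 666 and 1115 against 382, 375 and 317, again without overlap (log2 1.18 ± 0.24, limma adjusted p = 0.0414). At 12 h it had 367, 403 and 331 in controls and 521, 537 and 539 with IL-1 (log2 0.54 ± 0.12, limma adjusted p = 0.632), and 386, 423 and 347 against 514, 559 and 531 with IL-17A (log2 0.48 ± 0.12, limma adjusted p = 0.774). So the values did not overlap at 12 h either, at less than the size asked for a call. Over 16 alternative settings the log2 fold change at 12 h ran from 0.47 to 0.61 with IL-1 and from 0.40 to 0.55 with IL-17A. The adjusted p fell on both sides of 0.05 over these settings with each cytokine. The change at 72 h exceeded that at 12 h by 0.53 ± 0.19 with IL-1 (limma adjusted p = 0.0655) and by 0.70 ± 0.27 with IL-17A (limma adjusted p = 0.128). The 2 times share 2 control libraries, which the fits entered as separate, and the SE and p do not allow for this. Limma called 0 of 3 members in these 2 interactions (Il4ra at an unadjusted p under 0.05 in both), as did edgeR, against 17.4% of all genes with IL-1 and 0.0384% with IL-17A.

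The calls of Il4ra were close to the threshold. With IL-1 the log2 fold change was 0.98 without control replicate 4 and 0.98 without IL-1 replicate 1, each just under 1. With IL-17A the adjusted p rose above the threshold in limma when any control replicate or IL-17A replicate 1 or 3 was left out and stayed under it without replicate 2, with log2 fold changes from 0.95 to 1.32 over all 6 omissions. All 3 IL-17A libraries at 72 h were male by Xist, while 2 of 3 controls were female. A sex block therefore compares the treated libraries with the 1 male control, and its value for Il4ra is the male difference given next. Between male libraries alone, the difference of Il4ra was 1.05 for IL-1 at 72 h (1 control and 2 treated) and 1.08 for IL-17A (1 control and 3 treated), and between female libraries 0.97 for IL-1 (2 controls and 1 treated).

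Il13ra1 had 1127, 1794 and 1787 normalized counts in controls at 72 h and 2254, 2104 and 2309 with IL-1, and 1125, 1784 and 1783 against 2263, 2108 and 2686 with IL-17A. Treated libraries lay above controls without overlap, and neither change was called (log2 0.53 ± 0.20 and 0.61 ± 0.22, limma adjusted p = 0.0672 and 0.0941). The single male control was the low one: between male libraries the difference was 1.02 with IL-1 and 1.06 with IL-17A, and between female libraries it was 0.23 with IL-1. At 12 h Il13ra1 had 1546, 1189 and 1862 in controls against 1570, 2268 and 2203 with IL-1 (log2 0.40 ± 0.21), and 1623, 1246 and 1950 against 1836, 2392 and 2524 with IL-17A (log2 0.50 ± 0.20). Both pairs of groups overlapped, and at 12 h 1 of 3 controls but 2 of 3 treated libraries were female. Replicates 3 and 4 of each treatment at 12 h and controls 2 and 4 at 72 h were also far closer to each other (chi-square per gene 3.03 to 3.32) than other replicate pairs of the series (18.1 to 212), short of identity.

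Crlf2 had a lower median in male than in female organoid libraries, with overlapping ranges, and the difference was not tested. Over the 16 different organoid libraries it ran from 1.82 to 15.04 CPM in the 9 male ones (median 2.87) and from 6.79 to 18.2 in the 7 female ones (median 9.34). The near-identical pairs above are all female, so the female libraries are fewer than 7 independent ones. Sex and culture of origin cannot be told apart from the labels. At 72 h controls had 27.5, 141 and 166 normalized counts, IL-1 libraries 55.4, 306 and 262 and IL-17A libraries 60.5, 51.8 and 310 (beside controls of 27.4, 140 and 166). The highest male values were those of IL-1 replicate 3 and IL-17A replicate 3 at 72 h. At 12 h controls had 42.2, 29.0 and 173 against 37.8, 152 and 151 with IL-1, and 44.3, 30.4 and 181 against 42.7, 136 and 116 with IL-17A. All 4 pairs of groups overlapped with the sexes mixed, and the SE of the log2 fold change was 0.73 to 0.90. A change of Crlf2 was not detectable at this spread. Between male libraries at 72 h the log2 difference was 2.10 with IL-1 (1 control, 2 treated) and 1.82 with IL-17A (1 control, 3 treated). Between female libraries it was 0.99 with IL-1 (2 controls, 1 treated), and no IL-17A library was female. At 12 h it was 0.11 and 0.21 between male and -0.19 and -0.52 between female libraries, with IL-1 and IL-17A in turn. Each difference rests on 1 library in 1 of its groups.

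**Figure D5:**
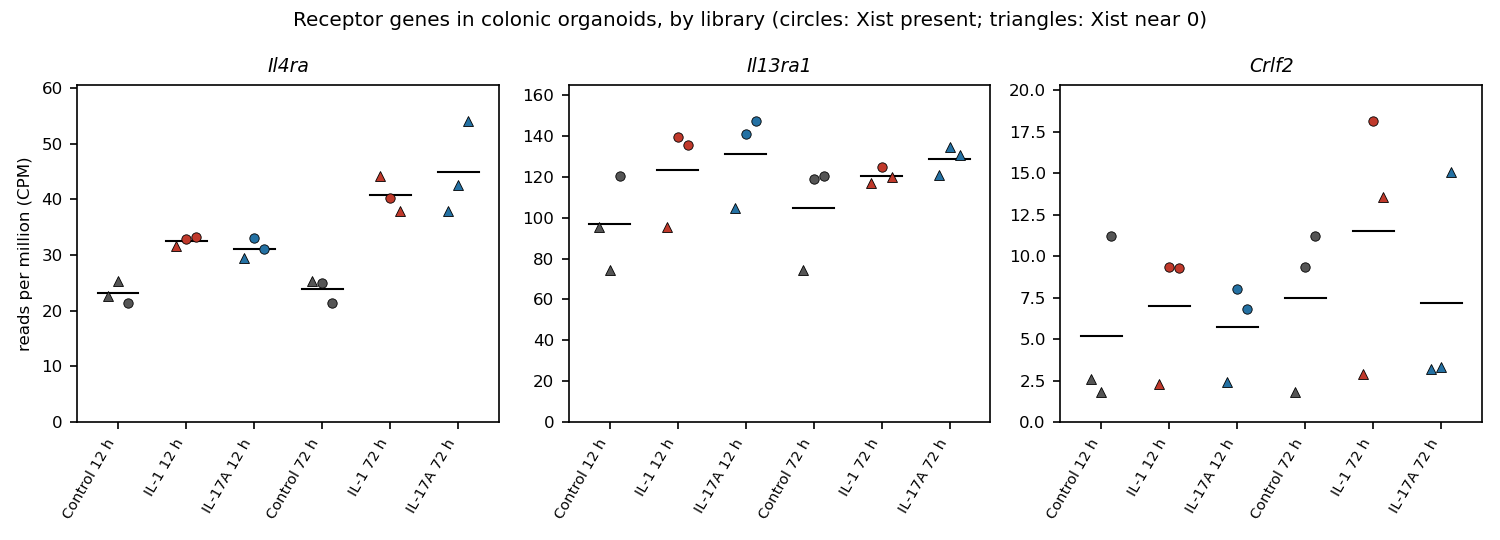
CPM (vertical axis, from 0) of Il4ra, Il13ra1 and Crlf2 in each colonic organoid library with the group mean (line), for control (gray), IL-1 (red) and IL-17A (blue) at 12 and 72 h. Circles are libraries with Xist and triangles those without, and 2 of the control libraries hold the same reads at both times. Il4ra is highest at 72 h with cytokine, and most triangles of Crlf2 lie under the circles.

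Among the other type 2 genes in organoids, limma called 7 of 23 tested higher and 2 lower with IL-1 at 72 h and 4 of 23 higher and 0 lower with IL-17A at 72 h. Over all genes 10.9% were higher and 12.2% lower with IL-1, and 5.02% higher and 2.92% lower with IL-17A. The 4 IL-17A calls rest on few libraries: 0 were left without control replicate 2, control replicate 4 or IL-17A replicate 1, 1 without IL-17A replicate 3 and 2 without control replicate 1, while 7 were made without IL-17A replicate 2. With near-identical libraries averaged, 0 were left. A sex block rests on 1 male control in this comparison. None was called at 12 h in limma, edgeR or DESeq2 (2 of 21 with IL-1 and 3 of 22 with IL-17A at an unadjusted p under 0.05 in limma). Areg, an EGF receptor ligand, had 935, 1005 and 1098 normalized counts in controls, 8987, 2219 and 3368 with IL-1 (log2 2.01 ± 0.45, limma adjusted p = 0.0118) and 7885, 4583 and 4065 with IL-17A (log2 2.39 ± 0.26, limma adjusted p = 0.0205). The kinase gene Jak3, which works with the common γ chain, had 92.2, 171 and 129 in controls against 465, 669 and 638 with IL-1 (log2 2.19 ± 0.28, limma adjusted p = 0.00295) and 419, 248 and 732 with IL-17A (log2 1.74 ± 0.43, limma adjusted p = 0.0489). Both genes rose with both cytokines in these fits, and with IL-17A Jak2 (log2 1.35 ± 0.31) and the adaptor gene Irs2 (log2 1.30 ± 0.23) were the other 2 called.

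The 2 genes that fell with IL-1 at 72 h were products of goblet and other secretory cells. Retnlb had 53.2, 88.6 and 65.3 normalized counts in controls and 0, 2.99 and 2.19 with IL-1, which is 0, 3 and 2 reads (log2 -4.88 ± 0.64, limma adjusted p = 0.00312). Ang4 had 1017, 1475 and 1596 in controls and 92.7, 596 and 163 with IL-1 (log2 -2.68 ± 0.60, limma adjusted p = 0.0122). Retnlb passed the filter through the control libraries, so the counts of called genes of the list with IL-1 are a description. Goblet markers were also uneven in the IL-1 libraries: Muc2 ranged from 503 to 2773 CPM against 2984 to 3442 in controls, while the whole goblet list (7 of 7 genes) summed to 2374 to 10431 CPM against 6959 to 7543, and the part of goblet cells in the fall of Retnlb and Ang4 was not tested. In goblet cells 0 genes of the list were called in limma in the 4 comparisons (8 of 22 and 1 of 22 in proximal and distal GS4M2, 10 of 25 and 6 of 25 in proximal and distal GA3M2 at an unadjusted p under 0.05), while edgeR called 1, 0, 0 and 0 and DESeq2 2, 0, 7 and 6.

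Set side by side in CPM, the 3 genes measured everywhere ranked the cells differently. Il4ra was highest in GS4T distal (297 ± 25.3 CPM, SD, n = 2), GS4T proximal (274 ± 12.9) and GA3T distal stroma (244 ± 96.3), neighbours whose libraries overlap, and lowest in control organoids (23.2 ± 1.97 at 12 h and 23.9 ± 2.16 at 72 h, n = 3). Goblet groups lay between 65.3 and 107 CPM. Il13ra1 was highest in goblet cells of the distal colon, at 262 ± 7.38 CPM in GWTM2, 223 ± 24.3 in GA3M2 and 205 ± 11.4 in GS4M2, and lowest in GWTT proximal stroma at 29.6 ± 9.04. Its organoid groups, 96.9 to 131 CPM, overlapped their neighbours in the order. Crlf2 was highest in stromal groups (28.1 to 47.9 CPM) and did not exceed 14.0 in any goblet or organoid group mean.

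Per kilobase of exon, the scale on which genes can be compared, Il4ra reached 49.5 CPM in GS4T distal stroma, Il13ra1 31.5 and Crlf2 32.0, whereas Tslp was at 1.22 and Il13ra2 at 4.53 there. In GWTM2 distal goblet cells Il13ra1 reached 70.7 and Il4ra 13.8 CPM per kilobase, the reverse order. Tslp was highest in GWTT proximal stroma (8.36 ± 0.582 CPM) and fell through GWTT distal (5.07 ± 0.252), GA3T proximal (3.89 ± 0.910), GA3T distal (3.43 ± 0.137), GS4T proximal (2.06 ± 0.445) and GS4T distal (1.62 ± 0.607). Within that order the GA3T segments overlapped each other, as did the GS4T segments, and the other neighbours did not. Il31ra stood out in GWTT proximal stroma at 5.74 ± 1.65 CPM, with every other group at 1.09 or less and overlapping its neighbours. Il9r was highest in GWTT proximal (2.85 ± 1.24) and GWTT distal stroma (2.56 ± 1.26) and lowest in GS4T distal (0.284 ± 0.0958).

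Of 11244 genes with a row in all tables, those whose log2 levels followed a member most closely over the 18 group means were Tcirg1 (Pearson r 0.959) and Mgat1 (0.956) for Il4ra, Shkbp1 (0.941) and Notch4 (0.930) for Il13ra1, and Tnfrsf1a (0.975) and Hhat (0.972) for Crlf2. These correlations over 18 points are a description, since the points share cell type, controls and sequencing depth.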

How the data were processed

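Bulk RNA-seq of 42 libraries was used as 12 deposited tables of normalized counts, 1 for each comparison. According to the study's methods the authors mapped reads to mm10 with STAR 2.5.3 and divided gene counts by DESeq2 1.28.1 size factors, and the deposited signal values are these normalized counts. The annotation, the counting program and the strand setting are not given in the sources used here. Division of each column by its smallest step gave whole reads (tolerance 0.1) for CPM, edgeR and DESeq2. Each GS4M2 table held 4 rows without a gene name, up to 28.2% of a library, which were left out. Columns not mapped to a sample numbered 0.

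Each comparison was fitted alone with limma 3.58.1 (trend, R 4.3.3) on log2(normalized count + 1), so fold changes of low genes are understated, for genes with a mean of at least 10. Calls needed an adjusted p (Benjamini-Hochberg, all tested genes) under 0.05 and a log2 fold change of 1 or more in either direction. The 6 interaction fits joined 2 tables. Alternatives were a pseudocount of 0.1 or 10, no filter on means or one at 50, upper-quartile rescaling, edgeR 4.0.16, DESeq2 1.42.0, a replicate block, leaving out each library and, chosen after seeing the data, sex by Xist as a block (female above 100 CPM), near-identical organoid libraries averaged and shared controls left out. Simulated data were used to test the fitting code, and GEO labels gave the groups. CPM uses reads in named genes, exon lengths and coordinates come from GENCODE M21 (GRCm38), and all 8 names matched. Promoter windows of RefSeq (GRCm38.p6) were searched for 7 members. Named genes are the 8 members and, per comparison, up to 4 called genes of largest change from a list of 41 type 2 pathway genes, with the 2 genes of highest correlation for each member at 1 CPM or more. Other genes of that list are named with the counts after their values were seen. Members, lists and the 11 marker lists were chosen with earlier results of these data known.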

Additional observations from a re-analysis of the deposited data

Results flagged for a closer look

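The response to IL-1 differed between 12 and 72 h for 4 named genes of the type 2 list, by limma's interaction test over all genes. The change at 72 h minus the change at 12 h was 1.78 ± 0.43 SE for Jak3 (adjusted p = 0.0149) and 1.38 ± 0.28 for Irs2 (adjusted p = 0.00846), both higher later. It was -5.18 ± 1.62 for Retnlb (adjusted p = 0.0381) and -3.24 ± 1.05 for Ang4 (adjusted p = 0.0425), both lower later. The 2 times share 2 control libraries, and with those left out 0 genes of the list were called in place of 5. Without IL-1 72 h replicate 3 or control 12 h replicate 1, 2 were called, and without control 72 h replicate 2 or 4 or IL-1 12 h replicate 3 or 4, 3 were. Over all genes 17.4% were called.

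Il13ra1 went one way in distal stromal libraries and the other in distal goblet libraries of the same genotype. With Smad4 loss all stromal libraries were above and all goblet libraries below their controls, as with Alk3 loss. Directions were compared for Il4ra, Il13ra1 and Crlf2 in both genotypes and both segments, and only these 2 cases were opposite without overlap. Of their changes limma called only that of GS4T stromal cells. The share of all genes with such opposite orders was not computed. The goblet minus the stromal log2 fold change was -1.71 for GS4 and -0.77 for GA3. These 2 differences were not tested, and within each cell type the same controls serve both genotypes.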

How the results depend on the processing

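Each 2-library group limits what can be called. Without GS4T proximal replicate 1 or replicate 2, 0 members were called in that comparison and without GWTT proximal replicate 1, 3 were, so the count ran from 0 to 6 over omissions. In distal GS4T it ran from 1 to 4 (2 without GWTT replicate 1, 1 without GWTT replicate 2 or GS4T replicate 2). It ran from 0 to 1 in distal GA3T, with IL-1 at 72 h and with IL-17A at 72 h. The called members kept their direction in every omission. A mean of at least 50, which tests fewer genes, left 3 called in proximal and 3 in distal GS4T, and DESeq2 called 3 in proximal GA3T. In each goblet comparison, in proximal GS4T and in distal GA3T only 1 library was of the other sex by Xist. A sex block there gives the log2 fold change found without that library, with 1 library left in a group. It was 1.25 for Crlf2 in distal GA3M2, 2.49 for Il13ra2 in proximal GS4T and 1.11 for Il4ra in distal GA3T. For IL-17A at 72 h the block compares the treated libraries with 1 male control. When near-identical libraries were averaged, 0 members were called with IL-17A at 72 h. The causes were not tested.

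The replicate numbers were not shown to pair libraries, since groups shared 2 numbers. Same-numbered libraries correlated at 0.619 to 0.637 at 12 h, at 0.184 to 0.200 and -0.186 to -0.0989 with IL-1 and IL-17A at 72 h, and at -0.0573 to 0.302 in sorted cells. With a replicate block 0 members were called with IL-1 at 72 h and 0 with IL-17A at 72 h. The block also turned Crlf2 to -0.17 (IL-1, 12 h), -0.34 (IL-17A, 12 h) and -0.15 (IL-17A, 72 h).

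Other reversals concerned uncalled values. With sex as a block Crlf2 was 0.14 and 0.53 in proximal and distal GS4M2 and -0.041 and -0.16 with IL-1 and IL-17A at 12 h, Il4ra was 0.10 in distal GS4M2 and Il9r 0.27 in distal GA3T. Without shared controls the time difference was -0.054 (Il13ra1) and -0.94 (Crlf2) for IL-1 and -0.066 (Il13ra1) for IL-17A, and edgeR gave 0.14 for Crlf2 with IL-17A. Over omissions Crlf2 ran from -0.21 to 1.25 in distal GA3M2, -0.95 to 0.53 and -0.19 to 0.14 in distal and proximal GS4M2, -0.031 to 1.24 and -0.62 to 0.66 with IL-17A at 12 and 72 h, and, as segment or time differences, -0.71 to 0.75 (GA3M2), -0.55 to 0.92 (GS4M2), -0.49 to 0.0079 (GS4T), -0.56 to 1.03 (IL-1) and -1.10 to 0.23 (IL-17A). Il13ra1 time differences ran from -0.088 to 0.31 (IL-1) and -0.10 to 0.29 (IL-17A), Il31ra in distal GS4T from -0.37 to 2.53, Il9r in distal GA3T from -1.45 to 0.27, and Il4ra from -0.26 to 0.61 in distal GA3M2, -0.78 to 0.10 in distal GS4M2 and -0.071 to 0.80 as the GA3M2 segment difference. Of the values of single members under alternatives, 984 kept direction and call, 42 lost and 9 gained a call, and 50 turned.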
